A study of Mus musculus with 2 samples.

Results

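The 3 metallothionein genes Mt1, Mt2 and Mt3 were followed through bone marrow cultures with and without heme. They were taken by symbol from the 26124 genes of the deposited count matrices, and each was found in both libraries. Lineage-depleted (Lin-) bone marrow progenitors of C57BL/6 mice aged 8 to 10 weeks were cultured with GM-CSF at 20 ng/ml, under which myeloid cells form (macrophages, granulocytes and dendritic cells). On day 3, the cultures were given heme-albumin at 300 µM or albumin alone as the vehicle control, and the question was how heme altered the cells that formed. Each treatment was 1 single-cell RNA-seq library that pooled 5 hashtagged cultures, named for days 0, 3, 4, 5 and 7. The hashtag names of days 0 and 3 in the heme library also carry the word for heme, but according to the treatment label nothing was added before day 3. The description of the design gives exposures of 0, 24, 72 and 96 h, whereas the treatment label gives harvests on days 4, 5 and 7. As these differ for day 5, culture days are used here.

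Metallothioneins are small, cysteine-rich proteins that bind zinc and copper, and can take up cadmium and reactive oxygen species. Mt1 and Mt2 are made in most tissues, and their transcription is driven by the zinc-sensing factor MTF1 through metal response elements, and also by glucocorticoids and oxidative stress. Mt3 is best known from the brain, and Mt4 from stratified squamous epithelium. In macrophages, metallothioneins belong to the genes that respond to metal load and inflammation.

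The family lies in 1 block of chromosome 8 (GRCm38, plus strand), with 3 exons per gene in the GENCODE annotation. Mt1 (ENSMUSG00000031765) spans chr8:94179082-94180327, Mt2 (ENSMUSG00000031762) spans chr8:94172664-94173568, and Mt3 (ENSMUSG00000031760) spans chr8:94152607-94154146. The gap between Mt2 and Mt1 is 5513 bases, and that between Mt3 and Mt2 is 18517 bases. Mt4 (chr8:94137197-94139031) lies 13575 bases before Mt3. The coding sequences of Mt1 and Mt2 are identical at 79.6% of their bases, whereas Mt3 is identical at 66.2% to Mt1 and at 67.6% to Mt2. No stretch of 31 bases was shared between the transcripts of any pair of the 3 genes. The longest shared run was 27 bases, between Mt1 and Mt3.

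The promoter windows are shown because the 3 genes moved in the heme library to different extents. They begin 250 bases before the RefSeq start and end just before it or before the first annotated base, whichever comes first (RefSeq, GRCm38.p6), at chr8:94178839-94179081 for Mt1, chr8:94172368-94172617 for Mt2 and chr8:94152357-94152606 for Mt3. Capitals mark the core of the metal response element, searched as TGCACNC or TGCGCNC on both strands, and the antioxidant response core, searched as TGACNNNGC on both strands:
Mt1: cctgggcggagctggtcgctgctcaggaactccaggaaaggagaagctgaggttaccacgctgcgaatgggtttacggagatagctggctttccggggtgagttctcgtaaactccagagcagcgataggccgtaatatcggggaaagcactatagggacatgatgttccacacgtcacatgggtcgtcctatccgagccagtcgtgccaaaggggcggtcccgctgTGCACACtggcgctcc
Mt2: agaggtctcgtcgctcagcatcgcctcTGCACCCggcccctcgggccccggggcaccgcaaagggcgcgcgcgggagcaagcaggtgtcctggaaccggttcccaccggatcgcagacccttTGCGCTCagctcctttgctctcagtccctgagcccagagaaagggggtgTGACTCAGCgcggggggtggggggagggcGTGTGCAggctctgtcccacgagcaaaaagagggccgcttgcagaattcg
Mt3: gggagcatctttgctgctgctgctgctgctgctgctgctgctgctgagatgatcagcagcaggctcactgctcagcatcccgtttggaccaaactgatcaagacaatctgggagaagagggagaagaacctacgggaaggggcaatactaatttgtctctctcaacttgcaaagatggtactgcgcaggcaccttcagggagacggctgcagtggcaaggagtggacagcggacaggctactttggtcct

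The Mt1 window held 1 metal response core, which starts 23 bases before the start. The Mt2 window held 3, which begin 223, 128 and 50 bases before it, the last on the minus strand. It also held 1 antioxidant response core, 79 bases before the start. The Mt3 window held neither motif. Among 32851 windows of this length, 21.4% held at least 1 metal response core, 1.26% held at least 3, and 10.2% held an antioxidant response core. The annotation gives several start sites per gene. Between the first and the last of these, Mt1 had 4 metal response cores in 159 bases and 1 antioxidant response core, while Mt2 had 3 in 196 bases and Mt3 had 3 in 139 bases. Among the first bases of all transcripts, at these lengths, 0.0472%, 0.409% and 0.239% held at least as many metal response cores. An antioxidant response core was held by 6.89% at the length used for Mt1. These matches describe the letters of the windows and were not tested for use by any factor.

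After the limits of the study on cell quality, 598, 1897, 2107, 2367 and 2715 control cells and 1366, 2174, 2481, 1908 and 2012 heme cells of days 0, 3, 4, 5 and 7 were kept. Each culture held 6189203 to 34647365 gene UMIs (unique molecular identifiers, each a counted transcript end), and the medians of the cultures ran from 7912 to 15078 UMIs per cell. Levels are given as CPM, the UMIs of a gene per 1000000 gene UMIs summed over the cells of a culture. Brackets hold 95% intervals that cover counting error only. With 1 library per group there was no replicate and no test, and the differences have no replicate check. The limit of 5000 detected genes was exceeded by 16.4% to 33.9% of heme cells from day 3 on, but by 4.82% to 8.34% of control cells. On day 0, 59.9% of control and 7.78% of heme cells exceeded the limit on ribosomal UMIs. Levels over all barcodes with 1 hashtag are therefore given beside the culture levels that these limits moved by more than 1.5 times, and beside the values of cells rich in Mt3. The libraries shared 112 barcodes.

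Mt1 was the most counted member in each culture, and in both libraries its level was higher on day 7 than on day 3, further in the heme library. In the control library, it stood at 441, 600.5, 596, 714 and 824 CPM on days 0, 3, 4, 5 and 7. In the heme library, the values were 291, 474, 676, 994 and 1881 CPM. Heme cells thus had less Mt1 than control cells on day 3, before addition, and more from day 4 on, whereas the sign of the day 0 difference depended on the ribosomal names used. The day 3 ratio of heme to control was 0.790 (0.773 to 0.807). Days 4, 5 and 7 had ratios of 1.13 (1.11 to 1.16), 1.39 (1.36 to 1.42) and 2.28 (2.25 to 2.32). Relative to day 3 of its own library, Mt1 was 3.97-fold higher on day 7 in the heme library (3.90 to 4.04) and 1.37-fold higher in the control library (1.35 to 1.40).

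Mt2 fell from a high level on day 0 to its lowest level on day 3 and then climbed in both libraries. Control cultures of days 0, 3, 4, 5 and 7 had 156, 14.5, 25.2, 30.1 and 72.2 CPM. Heme cultures had 94.4, 17.8, 53.0, 82.4 and 224 CPM. From day 4 on, every heme culture was above the control culture of the same day. The day 3 ratio was 1.23 (1.08 to 1.39), and those of days 4, 5 and 7 were 2.10 (1.92 to 2.31), 2.74 (2.51 to 2.99) and 3.11 (2.96 to 3.25). Over all barcodes with 1 hashtag, the day 4 ratio was 3.44 (3.17 to 3.72). Day 7 was 12.6-fold above day 3 in the heme library (11.6 to 13.7) and 4.97-fold above it in the control library (4.49 to 5.52).

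Mt3 was the least counted member on days 0, 3 and 7 in both libraries and on day 4 in control. Its ratios lay above those of Mt1 and Mt2 on each day. Without the 1% of cells with the highest fraction of each gene, the day 7 log2 ratio was 0.99 for Mt3, 1.74 for Mt2 and 1.19 for Mt1. Control cultures of days 0, 3, 4, 5 and 7 had 0.969, 2.18, 7.37, 46.2 and 22.4 CPM. The heme cultures of these days had 10.8, 10.6, 141, 166 and 86.2 CPM. In both libraries the level was highest on day 5. Days 4, 5 and 7 had ratios of 19.1 (16.5 to 22.2), 3.59 (3.36 to 3.84) and 3.85 (3.55 to 4.18). Without the limits on cell quality, the heme cultures had 258, 347 and 167 CPM on days 4, 5 and 7 against 11.6, 56.8 and 22.6 CPM in the control cultures. Those ratios were 22.1, 6.11 (5.83 to 6.40) and 7.41 (6.93 to 7.93), so the day 5 and day 7 ratios were higher by more than 1.5 times.

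**Figure D1:**
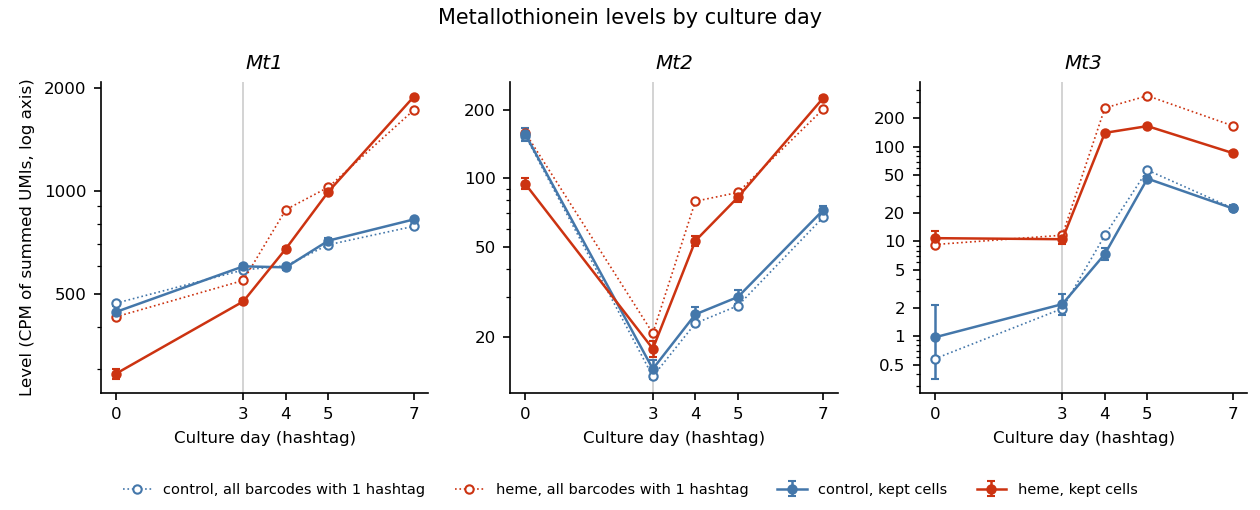
Levels of Mt1, Mt2 and Mt3 (CPM of summed UMIs, log axis) by culture day in the control (blue) and heme (red) library. Filled points are kept cells with 95% counting intervals, open points are all barcodes with 1 hashtag, and the grey line marks the day of heme addition. Mt1 reached 1881 CPM in heme against 824 CPM in control on day 7, Mt2 dipped on day 3 in both libraries, and Mt3 in heme stood above control on each day.

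Since days 0 and 3 precede heme, the levels of Mt3 there were set against those of other genes. Free RNA in a pooled cell suspension gives UMIs in cells that do not express a gene. Hmox1, the heme-degrading enzyme that served as the check of exposure, had 133 CPM in day 0 cells of the heme library against 1.94 CPM in the control library, where it was counted with 12 UMIs. On day 7, Hmox1 stood at 5201 against 86.3 CPM, a ratio of 60.3 (58.1 to 62.5). Mt3 in day 0 heme cells was spread thinly, with UMIs in 9.81% of cells (8.28% to 11.5%) at a median depth of 8071 UMIs and at most 2 UMIs in a cell. In control cells of day 0, 1.00% had a Mt3 UMI (0.369% to 2.17%) at a median depth of 8009.5. The day 0 level of Mt3 in kept cells was 13.1% of the mean of the heme library, against 6.44% for Marco and 6.60% for Spic. The cell limits moved these means unequally. Over all barcodes with 1 hashtag, Mt3 was 9.28 CPM on day 0 and 347 CPM on day 5, against 10.8 and 166 CPM in kept cells. Marco was 7.80 and 467 CPM on days 0 and 7, against 8.11 and 522 CPM. The shares are therefore not ranked between genes. The ratios were 11.2 (5.01 to 31) on day 0 and 4.85 (3.71 to 6.44) on day 3. The source of these UMIs was not tested, and no response to heme is read from these days. Within the heme library, Mt3 of days 4, 5 and 7 exceeded its day 3 level 13.3-fold (11.9 to 14.9), 15.7-fold (14.0 to 17.6) and 8.16-fold (7.28 to 9.16). The control library rose from a lower start, 3.39-fold, 21.2-fold and 10.3-fold, respectively. Divided by the day 3 ratio, the Mt3 ratio turned below 1 on days 5 and 7, with log2 values of -0.44 and -0.34.

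Mt4 had no UMI in any of the 10 cultures. The limit that a count of 0 allows (3 counts) was 0.0866 to 0.485 CPM.

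Of the 3 members, 2 were at least 2-fold higher in heme on day 4 (Mt2 and Mt3), where 9.64% of all 12514 genes with 20 or more UMIs passed this fold. On day 5, Mt2 and Mt3 again passed it, against 9.27% of all genes. On day 7, all 3 did, against 14.9% of all genes. Mt3 alone passed it on day 3, where the background was 7.95%, and on day 0, where it was 20.7%. No member was 2-fold lower on any day, whereas 1.75%, 0.539%, 2.98%, 3.75% and 7.67% of all genes were on days 0, 3, 4, 5 and 7. With TMM scaling, Mt2 was 2-fold lower on day 0 (log2 ratio -1.03). Among the genes at 10 CPM or more, the median log2 ratio was 0.21 to 0.31, so that part of each ratio was shared with most genes. Relative to the median of its day, Mt1 was at -0.59, -0.05, 0.27 and 0.91 on days 3, 4, 5 and 7 on the log2 scale. Mt1 on day 4 therefore lay at the median of all genes, and with TMM and DESeq2 scaling its log2 ratio was -0.10 and -0.06. With TMM scaling, Mt1 also dropped under 2-fold on day 7, and Mt2 on day 4. For Mt2 and Mt3, days 4, 5 and 7 remained above the median, by 0.84, 1.25 and 1.36 for Mt2 and by 4.02, 1.64 and 1.67 for Mt3.

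Genes within 100 kb of the cluster were taken by position, in a comparison added after values were seen. Nup93, a nucleoporin gene downstream of Mt1, had 19.9 CPM in heme and 18.5 CPM in control on day 7, a ratio of 1.08 (0.959 to 1.21). Bbs2, a gene of ciliary transport, was counted with 21 and 40 UMIs, a ratio of 0.675 (0.378 to 1.17). Ogfod1, a hydroxylase gene, had a ratio of 1.81 on day 7 (1.53 to 2.15) and of 1.65 on day 3 (1.41 to 1.94). Hence only the members had a ratio above 2 on day 7 among these neighbours, and the ratio of Ogfod1 was nearly as high before heme.

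The cultures differed in the cells they held, so the members were next measured in cells gated on raw UMIs. The gates were 10 or more UMIs of Camp, which encodes a granule protein of neutrophils, and 3 or more of Marco (a scavenger receptor of macrophages), Ccr7 (the homing receptor of mature dendritic cells) or Cd36 (a receptor for lipids and dying cells). Levels are given for gates with at least 50 cells. On day 7, the Camp, Marco, Ccr7 and Cd36 gates held 0.663%, 0.479%, 18.5% and 26.2% of the control cells and 9.0%, 35.9%, 1.84% and 14.4% of the heme cells. The level of a culture thus depends on which cells it holds and on the RNA of each. The summed markers followed the gates. The neutrophil, macrophage and dendritic cell lists include Camp, Marco and Ccr7 themselves, so these sums were partly fixed by the gates. Camp gates carried 240078 to 328768 CPM of 8 neutrophil markers on days 4 to 7, Ccr7 gates 18586 to 21235 CPM of 8 dendritic cell markers, and the Marco gate 2294 CPM of 8 macrophage markers. The Cd36 gate was mixed. It held 10875 to 17839 CPM of the dendritic cell markers on days 4 to 7, except in heme on day 7, where it held 4821 CPM of these and 1554 CPM of the macrophage markers. In heme on day 4 it also held 11358 CPM of the neutrophil markers.

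Within the Cd36 gate, each member was higher in heme on days 4, 5 and 7. Mt1 was at 1470, 1078 and 2087 CPM in heme and at 980, 659 and 672 CPM in control. These gave ratios of 1.5 (1.42 to 1.59), 1.64 (1.56 to 1.71) and 3.11 (3.02 to 3.2). Mt2 was at 188, 131 and 274 CPM in heme and at 86.1, 19.6 and 59.3 CPM in control, with ratios of 2.18, 6.66 and 4.63. Mt3 was at 1430, 816 and 319 CPM in heme and at 53.6, 177 and 46.8 CPM in control. The Mt3 ratios were 26.6 (22.0 to 32.6), 4.60 (4.28 to 4.95) and 6.82 (6.21 to 7.51). On day 7, 1 heme cell of this gate held 554 of its 1688 Mt3 UMIs, which the counting interval does not cover. With 127, 173 and 290 heme cells, this gate held 89.3%, 90.1% and 72.7% of all Mt3 UMIs of the heme cultures, although it held 5.12%, 9.07% and 14.4% of the cells. In the control cultures it held 56.8%, 83.6% and 76.2% of the Mt3 UMIs. The median depth of these cells was 16822 to 22278 UMIs, against 6530.5 to 14442 UMIs in the cells of no gate, and a gate on raw UMIs favours deep cells. CPM are not raised by depth as such, whereas shares of cells with a UMI are.

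**Figure D2:**
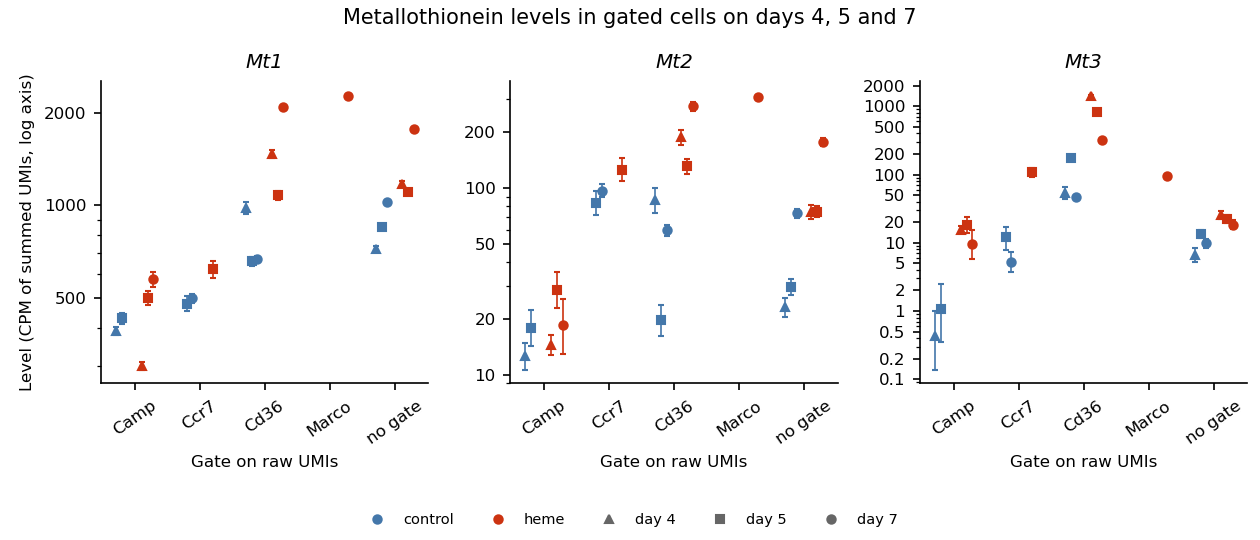
Levels of Mt1, Mt2 and Mt3 (CPM of summed UMIs, log axis) in gated cells of days 4 (triangles), 5 (squares) and 7 (circles), control in blue and heme in red, with 95% counting intervals. Gates with under 50 cells are left out, and a cell may lie in several gates. Mt3 is highest in the Cd36 gate in both libraries, with 1430 CPM in heme on day 4, and Mt1 and Mt2 are highest in the Marco gate of the heme library on day 7.

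The Marco gate held enough cells only in heme on day 7, with 723 cells against 13 in control. It had the highest Mt1 and Mt2 of the gates, at 2263 CPM (2236 to 2290) and 306 CPM (296 to 316). Mt3 stood at 93.7 CPM (88.3 to 99.4) and was unequal within the gate. The 156 Marco cells that were also in the Cd36 gate had 252 CPM of Mt3 (234 to 272), and the 567 others had 44.9 CPM (40.6 to 49.4). Cd36 cells outside the Marco gate had 395 CPM (371 to 421). Mt1 differed less between these cells, with 2500, 2189 and 1616 CPM, and Mt2 was at 348, 293 and 190 CPM. Of these 3 sets, Cd36 cells without Marco thus had the least Mt1 and Mt2, and by these sums the most Mt3. The highest Mt3 count in a kept cell of this culture was 554 UMIs. By Mt3 totals, that cell lay among the Cd36 cells without Marco (977 UMIs) or the Marco cells in the Cd36 gate (711 UMIs). Which of these sets held it was not determined. The Mt3 level of that set came mostly from this cell, which the counting intervals do not cover. The Mt3 differences between these sets are therefore not read as those of many cells. The Marco gate supplied 53.4% of the Mt1, 60.6% of the Mt2 and 48.3% of the Mt3 UMIs of the day 7 heme culture.

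Camp-gated cells had the lowest Mt1 of the gates. It was no higher in the heme library than in control on day 3, before addition, or on day 4. Their Mt1 was 502 and 391 CPM on days 3 and 4 in control and 387 and 301 CPM in heme, with ratios of 0.770 (0.742 to 0.798) and 0.771 (0.740 to 0.802). On day 5 the ratio was 1.17 (1.09 to 1.25), from 501 against 430 CPM. Mt2 in these cells was 14.5 and 12.6 CPM in control and 16.1 and 14.5 CPM in heme on days 3 and 4, and both ratio intervals included 1. On day 5, Mt2 had a ratio of 1.60 (1.17 to 2.19), with 82 against 84 UMIs. Mt3 in Camp-gated heme cells was lowest on day 3 (9.09 CPM), higher on day 4 (15.6 CPM) and highest on day 5 (18.5 CPM), with 9.70 CPM on day 7. On days 3 and 4, 11.9% (10.1% to 14.0%) and 11.7% (10.2% to 13.4%) of them had a Mt3 UMI, at median depths of 13372 and 9043 UMIs. Camp-gated control cells of days 3, 4 and 5 had 0.659, 0.426 and 1.06 CPM. In heme, 5 cells on day 4 and 1 on day 5 held 5 or more Mt3 UMIs. The source of Mt3 UMIs in the others was not tested. Hmox1 in the same cells was 130 CPM on day 3 and 658 CPM on day 4.

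In the control library on days 5 and 7, Ccr7-gated cells had more Mt2 than the Cd36 gate and the cells of no gate. On day 5, the 145 control cells had 83.4 CPM of Mt2 (72.1 to 96.0) and the 91 heme cells had 126 CPM (109 to 144), a ratio of 1.51 (1.23 to 1.84). The 501 control cells of day 7 had 96.7 CPM (89.4 to 105), and in heme the gate held 37 cells. Mt1 in these cells was 480 and 621 CPM on day 5 and 499 CPM in control on day 7. Within the control library, Mt2 was 2.81-fold higher in the Ccr7 gate than in the cells of no gate on day 5 (2.36 to 3.34), while Mt1 was lower, with a ratio of 0.566 (0.532 to 0.602). On day 7, these ratios were 1.32 for Mt2 (1.2 to 1.45) and 0.486 for Mt1 (0.468 to 0.505). In heme on day 5, however, Mt2 was 131 CPM in the Cd36 gate, a ratio of 1.04 to the Ccr7 gate (0.880 to 1.24). Mt3 reached 108 CPM in the gate in heme on day 5, but without the cells that were also in the Cd36 gate it was 22.3 CPM (14.0 to 33.7).

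Cells of no gate also had more of each member in heme, but differed in kind between the libraries. On days 4, 5 and 7, the 8 neutrophil markers summed to 84373, 110917 and 30179 CPM in heme and to 41931, 54190 and 5656 CPM in control. The 8 dendritic cell markers summed to 1944, 1443 and 2184 CPM in heme and to 5187, 6626 and 8854 CPM in control. Their part in the differences was not tested. Mt1 was at 1172, 1107 and 1777 CPM in heme and at 724, 848 and 1027 CPM in control on days 4, 5 and 7. The ratio was 1.62, 1.30 and 1.73. Mt2 in these cells had ratios of 3.24, 2.52 and 2.42. Mt3 was at 25.7, 22.4 and 18.5 CPM in heme, after 9.42 CPM on day 3, and at 6.65, 13.4 and 9.78 CPM in control, after 2.19 CPM. With higher gates, the day 5 ratio of Mt3 was 0.960 (0.825 to 1.12), against 1.67 (1.38 to 2.02).

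Since both genes were counted in the same cells, the UMIs of Mt2 per 100 UMIs of Mt1 do not depend on depth or scaling. They were not divided by transcript length, because the method counts 3′ ends, and serve to compare cultures rather than the amounts of both genes. The ratio was 35.3 in control (32.8 to 38.0) and 32.4 in heme (30.4 to 34.6) on day 0. On day 3 it was 2.42 (2.19 to 2.66) and 3.76 (3.45 to 4.08). It was higher in heme than in control on each day from 3 to 7, with 7.84, 8.29 and 11.9 in heme and 4.23, 4.21 and 8.77 in control from day 4 on. In gated cells of days 4 to 7, it was highest in the Ccr7 gate, with 17.4 and 19.4 in control and 20.2 in heme, whose intervals overlapped on day 5. The Camp gate lay between 3.2 and 5.71. In the Cd36 gate it was 12.8, 12.1 and 13.1 in heme and 8.79, 2.98 and 8.82 in control.

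**Figure D3:**
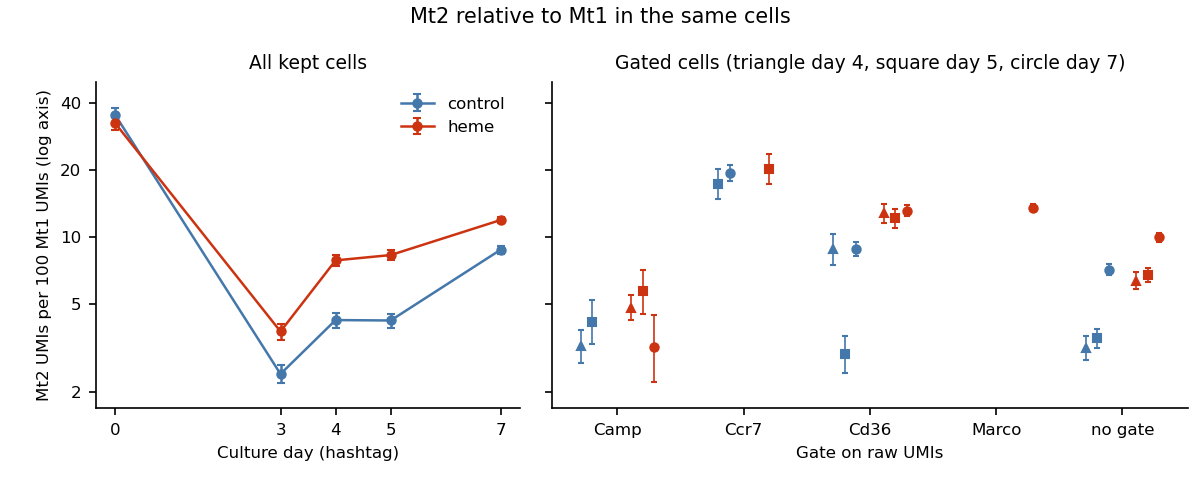
UMIs of Mt2 per 100 UMIs of Mt1 (log axis) with 95% counting intervals, by culture day in all kept cells (left) and in gated cells of days 4, 5 and 7 (right), control in blue and heme in red. The ratio falls from 35.3 and 32.4 on day 0 to 2.42 and 3.76 on day 3, and the Ccr7 gate holds the highest values of the gates, between 17.4 and 20.2.

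The high Mt2 of day 0 lay in cells with erythroid markers, a split made after the data had been seen. In the control library, the 177 day 0 cells with 3 or more UMIs of Klf1 or Car1 carried 97.7% of the Mt2 UMIs and 86.5% of the Mt1 UMIs. Their Mt2 was 279 CPM (261 to 297), and their Mt1 was 699 CPM (671 to 728). The 316 cells with neither these nor basophil or mast cell markers had 9.62 CPM of Mt2 (5.95 to 14.7) and 149 CPM of Mt1. The heme library repeated this with 249 marker-positive cells, 286 CPM of Mt2 (270 to 304) and 91.8% of the Mt2 UMIs. The day 0 level over all kept cells depended on the limits: with all barcodes with 1 hashtag, Mt2 was 154 CPM in control and 158 CPM in heme, and Mt1 was 468 and 427 CPM. With another list of ribosomal names, the log2 ratio of day 0 turned from -0.60 to 0.57 for Mt1 and from -0.72 to 0.57 for Mt2. No difference between the libraries is therefore read from day 0.

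Mt3 was held by few cells. The 1% of cells with most Mt3 carried 77.2%, 51.3% and 73.7% of the Mt3 UMIs of the heme cultures on days 4, 5 and 7, against 23.2%, 14.6% and 9.17% for Mt1. The highest count in a kept cell was 384, 161 and 554 UMIs on these days in heme and 32, 124 and 138 UMIs in control. Shares of kept cells with any Mt3 UMI in heme were 15.3%, 17.2% and 17.7% on days 4, 5 and 7, against 13% on day 3. After each cell was thinned to 2000 UMIs, the heme shares were 2.35%, 5.18%, 6.68% and 5.38% on days 3, 4, 5 and 7, and the control shares 0.106%, 0.774%, 2.45% and 1.95%. Thinning left out 8 to 81 heme and 6 to 124 control cells of these cultures. For Mt2 on day 7, by comparison, 56.5% of heme and 33.8% of control cells had a UMI, or 24.8% and 11.8% after thinning. Cells with 5 or more UMIs were absent from both day 0 cultures and numbered 3 in each day 3 culture. They made up 2.58% (1.99% to 3.28%), 4.35% (3.48% to 5.36%) and 2.34% (1.72% to 3.09%) of the heme cells on days 4, 5 and 7. The control shares were 0.427% (0.195% to 0.809%), 2.66% (2.05% to 3.39%) and 1.33% (0.930% to 1.83%). Over all barcodes with 1 hashtag, the heme shares were 5.22%, 12.2% and 5.83%, and the control shares 0.866%, 3.93% and 1.39%. Of these heme cells, 58.5%, 74.9% and 72.2% had more than 5000 detected genes.

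**Figure D4:**
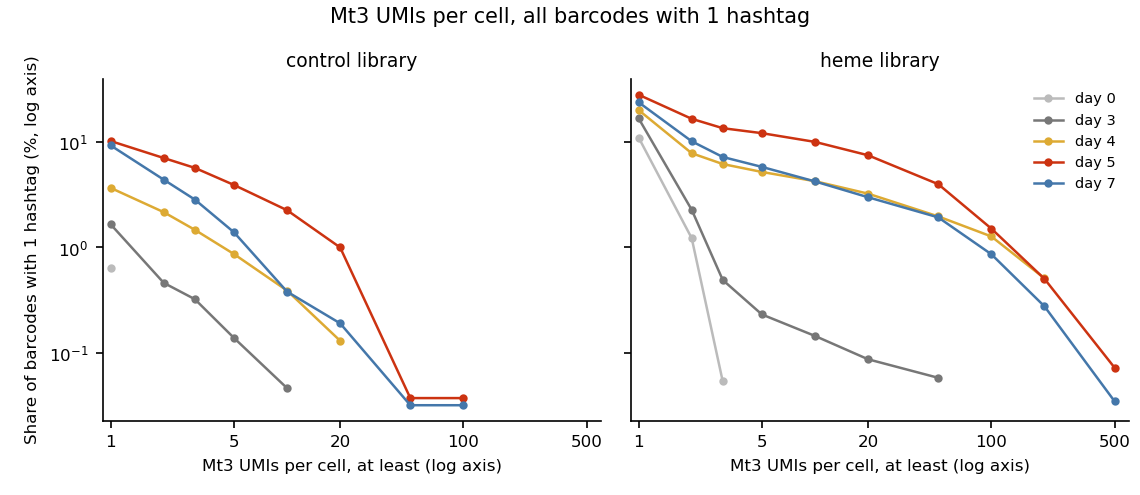
Share of barcodes with 1 hashtag (%, log axis) that held at least the given number of Mt3 UMIs (log axis), by culture day, in the control (left) and heme (right) library. The heme curves of days 4, 5 and 7 lie between 4.24% and 10.1% at 10 UMIs, whereas the day 0 curve ends at 3 UMIs and the day 3 curve lies at 0.144% at 10 UMIs.

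The 83 cells with 5 or more Mt3 UMIs in heme on day 5, the most of any kept culture, were described further without a test, since Mt3 itself chose them. Their median depth was 22421 UMIs, against 7574 UMIs in the other cells. Of these cells, 96.4% were in the Cd36 gate, against 5.10% of the other cells. The 10 genes that stood highest in them by CPM ratio, with 10 CPM added to both values, were Plet1 (2970 against 148 CPM), Cd36 (1692 against 84.1 CPM), Ccl24, Ppbp, Dcstamp, Ptx3, Gpnmb, Mmp12, Ccl17 and Cyp1b1. Dcstamp encodes a fusion receptor of osteoclasts and giant cells, Gpnmb a glycoprotein of lysosome-rich macrophages, and Mmp12 the macrophage elastase (10593 against 1033 CPM). Ccl17 and Ccl24 encode chemokines, at 3203 against 318 CPM and 206 against 2.84 CPM. In heme on day 4, 64 cells shared Plet1, Cd36, Ppbp, Dcstamp, Gpnmb, Mmp12 and Ccl17 among their 10 leading genes. The 63 control cells of day 5 had Cd36, Plet1, Ppbp and Ccl17 among theirs. Marco was low in the heme cells of day 5, at 5.57 CPM against 19.8 CPM in the others. The 8 dendritic cell markers summed to 16545 against 3307 CPM, the 8 macrophage markers to 490 against 379 CPM, and the 8 neutrophil markers to 3024 against 116256 CPM. Not every dendritic cell marker followed its sum. Ccr7 was lower in the cells rich in Mt3, at 36.7 against 105 CPM, and 1 of the 8 had no UMI in them. In control on day 5, Ccr7 was likewise lower in such cells, at 3.96 against 88.1 CPM. The Mt1 level of the cells rich in Mt3 was 1206 against 972 CPM, and Mt2 was 164 against 74.0 CPM. In the control cells of day 5, in contrast, Mt2 was lower in the cells rich in Mt3, at 5.28 against 31.6 CPM, while Mt1 was 767 against 711 CPM. Over all barcodes with 1 hashtag, the 339 heme cells of day 5 had a median depth of 39547 UMIs, 11.2 CPM of Marco, and differed less from the others, with 104 against 78.6 CPM of Mt2 and 1049 against 1013 CPM of Mt1. On day 7, the 169 such heme cells had 190 against 202 CPM of Mt2 and 1645 against 1731 CPM of Mt1.

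The genes that move metals and those that share regulators with metallothioneins were taken from lists by function. Of the zinc exporters, 6 of 10 had enough UMIs on day 7, and 1 was 2-fold higher in heme, against the 14.9% of all genes. This was Slc30a1, which carries zinc out of the cell and is a known MTF1 target. It had 21.4 CPM in heme and 5.05 CPM in control (ratio 4.24, 3.57 to 5.05), after ratios of 1.51 (1.23 to 1.85), 1.78 and 2.59 on days 3, 4 and 5. Slc30a5 had a ratio of 1.65 and Slc30a4 of 0.567. The median log2 ratio of the exporters was 0.38, close to the 0.28 of all genes.

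Of the zinc importers, 5 of 12 were 2-fold higher and none was lower on day 7, with a median log2 ratio of 0.87. Among all genes, 14.9% were higher and 7.67% lower by this fold. Before heme, 5 of 11 tested importers were 2-fold higher on day 0, against 20.7% of all genes. On day 3, none of 12 was, against 7.95%. Slc39a2 stood at 14.4 against 3.15 CPM, Slc39a6 at 66.9 against 16.2 CPM and Slc39a4 at 41.4 against 10.0 CPM. The ratio of Slc39a4 was 1.85 on day 3 and 2.94 on day 4, whereas Slc39a2 had 1.04 on day 5. Mtf1, the zinc sensor, had ratios of 1.10 on day 3 (1.01 to 1.19) and 1.66 on day 7 (1.49 to 1.85). Of the 9 copper genes, 2 were 2-fold higher, namely Sod1, the copper-zinc superoxide dismutase (ratio 3.88), and the copper transporter Slc31a2 (2.76), against 14.9% of all genes. On day 3, before heme, Sod1 was already at 1.63 (1.55 to 1.71) and Slc31a2 at 1.33 (1.24 to 1.43). Of the others, the copper chaperone genes Cox17 (0.550), Ccs (0.615) and Atox1 (0.708) and Commd1 (0.60) had ratios below 1, and these were named after their values were seen. On day 3, Ccs (0.522), Commd1 (0.583) and Atox1 (0.915) were already below 1, and Cox17 was at 1.07. The importer Slc31a1 had a ratio of 1.93. The median log2 ratio of the 9 copper genes was 0.56, against 0.28 for all genes.

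Of the 6 glucocorticoid targets tested, 2 were 2-fold higher on day 7, Sgk1 (2.32) and Dusp1 (2.00), against 14.9% of all genes, and Fkbp5 was at 1.89. With TMM scaling none of these was 2-fold higher. On day 3, before heme, Dusp1 was already at 2.20 (1.93 to 2.51), Sgk1 at 1.79 (1.57 to 2.03) and Fkbp5 at 1.36. Klf9, named after its value was seen, went the other way on day 7, at 0.678 (0.619 to 0.741). Of the 10 NRF2 targets, 9 were 2-fold higher on day 7 under either scaling, with a median log2 ratio of 2.19, against 14.9% of all genes on the CPM scale. Beside Hmox1, the largest ratios were those of Gclm (15.3) and Nqo1 (12.4), which serve glutathione synthesis and quinone reduction. On day 3, 2 of these 10 passed the fold, against 7.95% of all genes. The lists were chosen with earlier results known and give no independent evidence of direction.

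**Figure D5:**
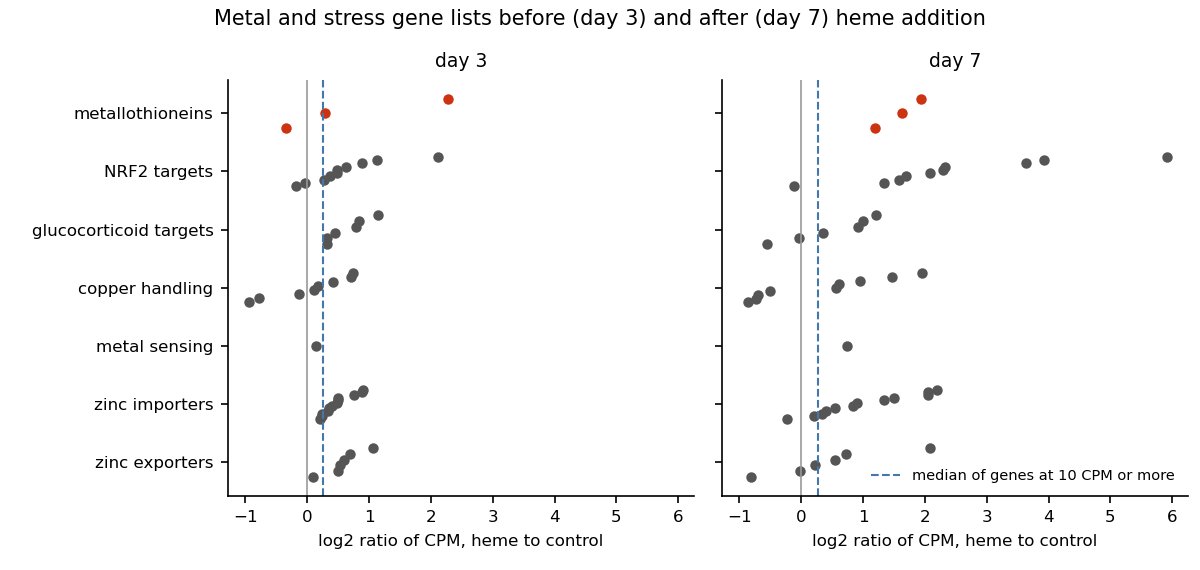
Log2 ratio of CPM, heme to control, of each listed gene with 20 or more UMIs, on day 3 (left, before heme) and day 7 (right), with the metallothioneins in red and the median of all genes at 10 CPM or more as a dashed line. On day 7 the members lie at 1.19, 1.63 and 1.94, above most zinc and copper genes and below Hmox1 at 5.91.

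Across the 10 cultures, the log2(CPM + 1) values of Mt1 and Mt2 had a Pearson correlation of 0.33, which was 0.93 over the 8 cultures of days 3 to 7. For Mt3, the correlation was 0.63 with Mt1 and 0.27 with Mt2, or 0.59 and 0.75 over days 3 to 7. Cultures of a library share library and free RNA, so these values are descriptions. Among 7889 genes with a mean of 10 CPM or more, those most like Mt1 were Esd (0.97), Dnase1l1, Cbr3, Ucp2 and Cyb5a. Esd had 121.5 CPM in heme and 214 CPM in control at the start, and 696 and 365 CPM at the end. Those most like Mt2 were Psen2 (0.96), Gstt2, Blvrb, Pf4 and Rab18. Blvrb, the biliverdin reductase found in red cells, had 721, 73.6 and 239 CPM on days 0, 3 and 7 in control, with a dip on day 3 as for Mt2. Those most like Mt3 were Bcl2l11 (0.99), Sema4d, Ube2h, Tecpr1 and Dusp6. Bcl2l11, a pro-apoptotic gene, was highest on day 5 in both libraries, with 42.6 CPM in control and 66.3 CPM in heme. Over days 3 to 7 alone, 4 of these 5 genes remained for Mt3 and none for Mt1 or Mt2.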

How the data were processed

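Single-cell 3′ RNA-seq libraries of the control and the heme group, 1 each, were analysed, with 5 hashtagged cultures per library. The authors deposited matrices of raw UMI counts per gene and barcode, made with Cell Ranger (4.0.0 in the methods and the processing notes, 5.0.0 in the matrix header) on GRCm38.p6 according to those notes, which also list Scanpy 1.6.0, Seurat 3.2.3 and R 4.4. The authors' deposited hashtag calls (HTODemux, positive quantile 0.99) were used to drop barcodes with several hashtags (1259 control, 1996 heme) or none (652, 1218). Doublets within a hashtag remain. With 1 library per group no test was possible, and cells were not treated as replicates.

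The limits of the study left 9684 control and 9941 heme cells: 500 to 5000 detected genes, less than 15% of UMIs mitochondrial and less than 30% ribosomal (names starting with Rpl or Rps and a digit). Counts were summed per culture or gate and divided by their total. Intervals at 95% are exact Poisson (levels), exact conditional (ratios) and Clopper-Pearson (shares). Folds over all genes used those with a sum of at least 20 UMIs over the control and heme culture of a day. Gates were set on raw UMIs, and levels are given for 50 or more cells. Scripts were tested on simulated data.

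The members and lists were chosen with earlier results of these data known. Genes were named by rule: the members, the gate genes, Hmox1, the 5 genes most correlated with each member, the 3 largest log2 ratios of each list on day 7, and the 10 leading genes of cells rich in Mt3. Klf1, Car1, Klf9, Cox17, Ccs, Atox1, Commd1 and the neighbours lie outside this rule and were chosen after values were seen, the neighbours by position. So were the alternatives of other ribosomal names, the day 0 split and all single-hashtag barcodes for cells rich in Mt3. Other alternatives were TMM (edgeR 4.0.16) and DESeq2 1.42.0 size factors in R 4.3.3, other totals, cell limits, gates and thresholds, subtraction of free RNA and division by the day 3 ratio. Python 3.11.15, numpy 2.4.6, scipy 1.17.1, pandas 2.3.3, Biopython 1.88 and matplotlib 3.10.9 were used. Protein sequences were not used here.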

Additional observations from a re-analysis of the deposited data

Results flagged for a closer look

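The heme to control ratio of Mt1 drew attention because it lay on opposite sides of 1 before and after heme addition. It was 0.790 on day 3, and 1.13, 1.39 and 2.28 on days 4, 5 and 7. The difference between these days was not tested, since each culture was sampled once. Relative to the median of all genes, the day 4 value was not above 0.

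Barcodes outside the comparisons also held the members. In barcodes called as doublets, the ratio of heme to control was 1.51 for Mt1 (1.48 to 1.53), 2.06 for Mt2 (1.95 to 2.18) and 9.37 for Mt3 (8.65 to 10.2). In barcodes without a hashtag, it was 1.34 for Mt1 (1.25 to 1.44), 1.67 for Mt2 (1.46 to 1.93) and 3.54 for Mt3 (2.3 to 5.71). These barcodes pool all days, and 1996 against 1259 doublets and 1218 against 652 barcodes without a hashtag were counted. These differences were not tested either.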

How the results depend on the processing

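No paired analysis was possible because each group was 1 library. Of 412 alternative values over 104 results, 188 stayed within the counting interval (counts of genes within 1.5 times), and 224 moved further. Of the log2 values, 10 changed sign. The members' log2 ratios of days 4, 5 and 7 and their mean were above 0 in 125 of 129 alternatives. The exceptions were Mt1 on day 4 with TMM (-0.10) and DESeq2 (-0.06), and Mt3 after division by the day 3 ratio, with -0.44 on day 5 and -0.34 on day 7 (the cause was not tested). Outside these, Mt1 of day 0 turned from -0.60 to 0.57 with other ribosomal names, and Mt2 of day 0 from -0.72 to 0.57 with these names and to 0.04 with all single-hashtag barcodes. Mt2 of day 3 was -0.04 with TMM, Mt2 in the Camp gate on day 3 was -0.04 with lower gates, and Mt3 in cells of no gate on day 5 was -0.06 with higher gates. The day 7 log2 ratio of Mt1 (1.19 as reported) was 1.13 with all single-hashtag barcodes, 1.12 without the upper gene limit, 0.93 with TMM and 0.93 with DESeq2. It was 1.09 with a total without ribosomal and mitochondrial genes, 0.87 with equal weight per cell, 1.28 after subtraction of free RNA, 1.15 with other ribosomal names and 1.53 after division by day 3. The mean of Mt1 over these days (0.62) was, in the same order of the first 6, 0.74, 0.74, 0.34, 0.37, 0.54 and 0.46. It was 0.57 without the top 1% of cells, 0.68 after subtraction of free RNA, 0.96 after division by day 3, and 0.83, 0.69 and 0.33 without day 4, 5 or 7. For Mt2, the day 7 value (1.63) was 1.38 with either TMM or DESeq2, 1.54 with the other total, 1.27 with equal weight, 1.74 without the top 1% and 1.34 after division by day 3. Its mean (1.39) was 1.67 with all single-hashtag barcodes or without the gene limit, 1.11 with TMM, 1.14 with DESeq2, 1.31 with the other total, 1.12 with equal weight, 1.53 without the top 1%, 1.49 after subtraction of free RNA, 1.09 after division by day 3, and 1.54 and 1.26 without day 4 or 7. For Mt3, the day 7 value (1.94) was 2.89 with all single-hashtag barcodes, 2.86 without the gene limit, 1.69 with TMM, 1.68 with DESeq2 and 0.99 without the top 1%. Its mean (2.68) was 3.32, 3.31, 2.41, 2.43 and 2.39 under these 5, 2.82 after subtraction of free RNA, 0.40 after division by day 3, and 1.89, 3.10 and 3.05 without day 4, 5 or 7. In the Cd36 gate, the Mt3 log2 ratio of day 7 (2.77) was 2.95 with higher gates, 3.00 in cells of 1 gate and 3.18 with all single-hashtag barcodes. The share of day 7 heme cells with Mt3 (17.7%) was 5.38% after thinning to 2000 UMIs, 3.28% at 3 or more UMIs and 24.0% with all single-hashtag barcodes. With these barcodes, Mt3 per 100 Mt1 (4.58) was 9.73, and the share of day 5 heme cells rich in Mt3 (4.35%) was 12.2%. Single libraries limit every comparison: library, day and treatment effects cannot be told apart beyond the day 3 values, and intervals cover counting error only.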
